A study of Mus musculus with 16 samples.

Results

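Inguinal white adipose tissue (iWAT) of the control mice from a pair of transgenic lines was compared by bulk RNA sequencing. The members are the 4 Has2_WT and the 4 PH20_WT libraries, chosen by their sample labels, which make up 8 of the 16 libraries of the study. Both groups are Apn-rtTA males: they carry the doxycycline-activated transcription factor rtTA under the adiponectin promoter, which is active in adipocytes, and no hyaluronan transgene. Has2_WT mice are the littermates of Apn-Has2 mice, which make the hyaluronan synthase Has2 in adipocytes, and PH20_WT mice are the littermates of Apn-PH20 mice, which make the hyaluronidase PH20 (encoded by Spam1). All were 8 to 10 weeks old at the start and ate chow with 200 mg/kg doxycycline for 5 days before harvest, so the groups share genotype label, sex, diet and drug. They differ in the line and litters they came from. The number of litters and the strain background are not given in the sources used here, and line, litter, cage, harvest and library preparation cannot be told apart in this design. The 8 transgenic libraries, Has2_TG and PH20_TG, were used to ask whether a gene differed between the lines in other mice. They also entered an alternative fit of the control contrast with all 16 libraries, and a test of the difference between the contrasts.

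The inguinal fat pad is a subcutaneous white depot in which adipocytes store triglyceride. They can make fatty acids and cholesterol themselves when insulin and nutrients are plentiful, and a minority can become thermogenic beige adipocytes that express Ucp1. Between the adipocytes lie progenitor cells that make the collagen matrix, resident macrophages that make complement and chemokines, vessels, and nerve fibres wrapped by Schwann cells. The pad also holds an inguinal lymph node and lies against muscle of the body wall and leg, so that a dissected sample can carry lymphoid or muscle RNA.

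The 8 libraries held 15459724 to 26751729 reads on genes (median 18786136). Has2 stood at 0.806, 0.474, 0.417 and 0.643 FPKM in Has2_WT and at 0.897, 0.765, 0.455 and 0.33 FPKM in PH20_WT. FPKM are fragments scaled to gene length and to the size of the library, so that levels can be compared between genes. No library had a read of Spam1, which allows up to 3 reads in each. The adipocyte genes Adipoq (751 to 1667 FPKM), Plin1 (273 to 754 FPKM) and Fabp4 (1382 to 2872 FPKM) were abundant in all 8 libraries, in keeping with adipose tissue, and the Y-linked Ddx3y lay at 16.1 to 22.6 FPKM while Xist did not exceed 0.0164 FPKM.

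Lymphoid genes split the libraries across the groups rather than between them. Cd79a, a subunit of the B cell receptor, stood at 93.2, 93.7, 0.849 and 0.755 FPKM in Has2_WT replicates 1 to 4 and at 123, 2.14, 50.6 and 1.83 FPKM in PH20_WT replicates 1 to 4. Cd3e, a subunit of the T cell receptor complex, and Glycam1, a ligand made by lymph node vessels, were high in the same libraries, with Glycam1 at 13.6, 8.66, 0 and 0 FPKM and 12, 0, 3.68 and 0 FPKM. Has2_WT1, Has2_WT2, PH20_WT1 and PH20_WT3 were thus rich in lymphoid RNA, 2 in each group, and the other 4 were poor. Of 14 B cell genes tested and 14 T cell genes tested, 0 differed between the groups at an unadjusted limma p under 0.05. The first principal component of the 8 libraries (49.9% of the variance) set the 4 lymphoid-rich libraries against the other 4. The second (17.3%) was positive in all 4 Has2_WT libraries and negative in all 4 PH20_WT libraries. The counts of the lists that differed most were therefore also taken without the 4 lymphoid-rich libraries, which leaves 2 against 2.

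**Figure D1:**
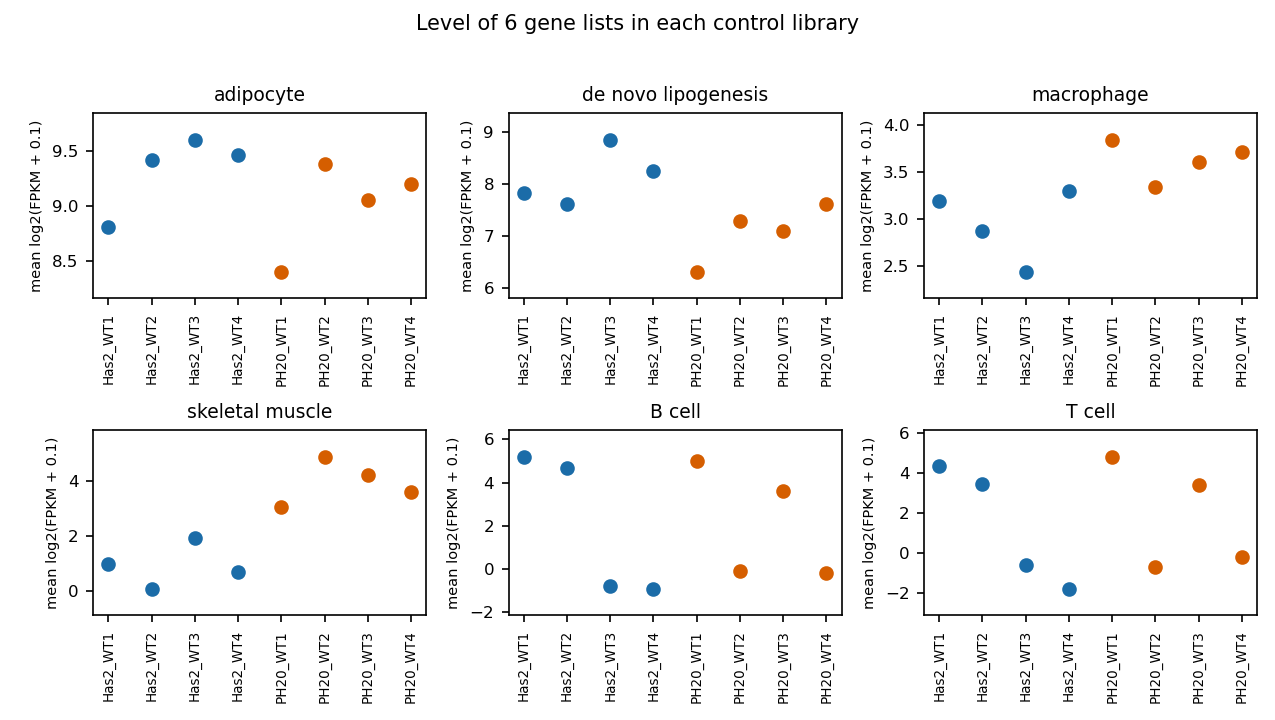
Mean log2(FPKM + 0.1) over the tested genes of 6 lists (y axis) in each of the 8 control libraries (x axis; blue, Has2_WT; orange, PH20_WT; one dot a library). The B and T cell lists are high in Has2_WT1, Has2_WT2, PH20_WT1 and PH20_WT3, while the skeletal muscle list ranges from 0.08 to 1.93 in Has2_WT and from 3.05 to 4.88 in PH20_WT.

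Many genes differed between control fat of the lines at an unadjusted threshold, and none after correction for the number of genes tested. An unadjusted threshold also passes a share of genes where the groups do not differ. Among 12673 genes averaging 50 reads or more, 605 (4.77%) were higher and 671 (5.29%) were lower in Has2_WT at an unadjusted p under 0.05 (limma's moderated test on log2(FPKM + 0.1), 4 libraries against 4). After Benjamini-Hochberg adjustment 0 genes passed 0.05, and the smallest adjusted p was 0.129. All differences below are Has2_WT minus PH20_WT on that log2 scale, "called" means an unadjusted p under 0.05, and no called gene passed the adjustment. The values of all 4 Has2_WT libraries lay above those of all 4 PH20_WT libraries in 396 genes (3.12%) and below them in 397 genes (3.13%). The median difference over all genes tested was -0.01. The list counts below are to be read beside these shares of all genes: 4.77% called higher, 5.29% called lower, and 3.12% and 3.13% without overlap.

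The libraries chosen affected these counts. Without Has2_WT3, 375 genes were higher, and without PH20_WT3 or PH20_WT4, 416 or 438 were lower. Without the 4 lymphoid-rich libraries 359 were higher and 430 lower. With the B cell score (the mean log2 level of the B cell list) as a covariate, which takes out the lymphoid split, 856 were higher and 967 lower, and 40 passed the adjustment. These 40, of which 13 were higher and 27 lower in Has2_WT, included Insig1 and Acss2 among the higher and Ckm, Acta1, Ccl8, Clec7a, Clec10a and Ube2e2 among the lower.

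**Figure D2:**
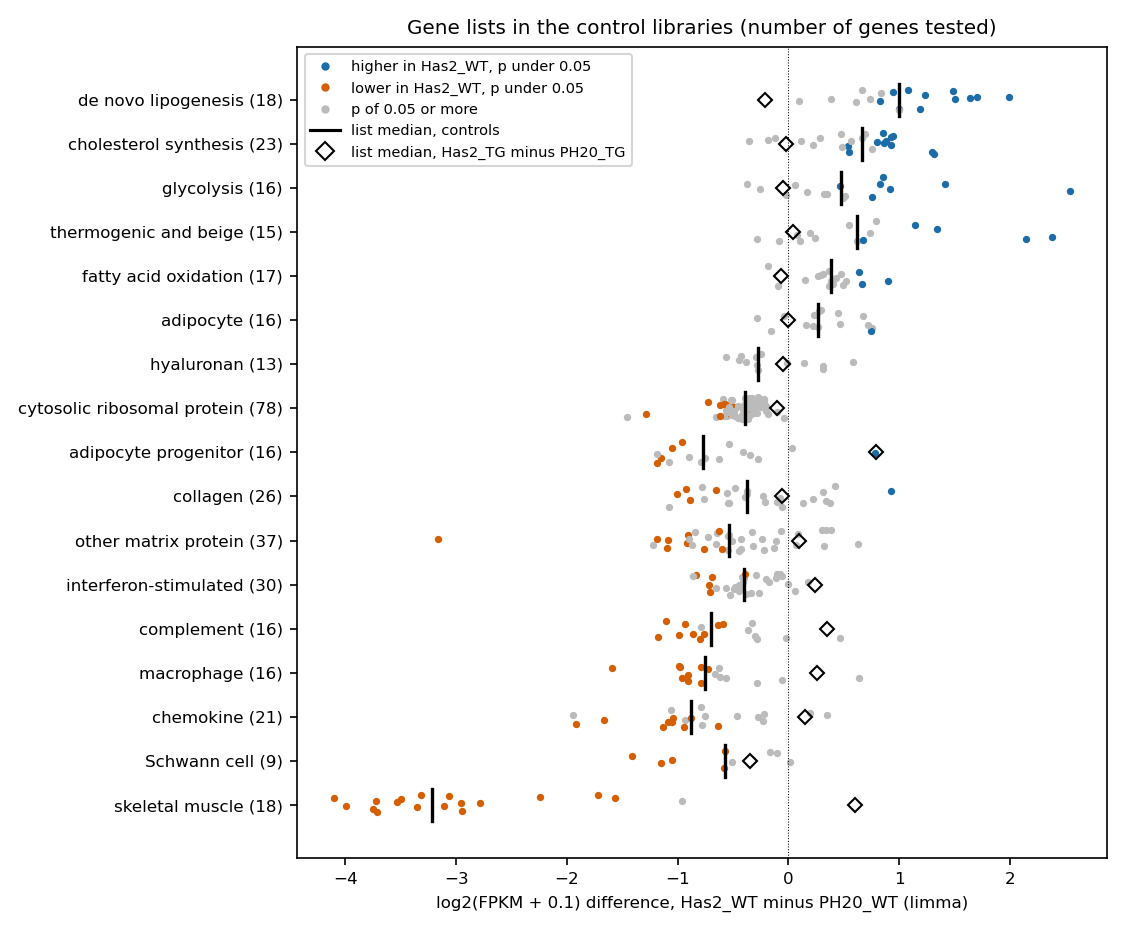
Differences Has2_WT minus PH20_WT in log2(FPKM + 0.1) (x axis) for the tested genes of 17 lists (y axis; number tested in brackets). Each dot is a gene, coloured where its unadjusted p was under 0.05, black bars are list medians in the controls and open diamonds are list medians of Has2_TG minus PH20_TG. The lipogenesis and cholesterol lists lie to the right (medians 1.00 and 0.66) and the skeletal muscle list lies to the left (median -3.21), while the diamonds, from all 8 transgenic libraries, lie between -0.35 and 0.79.

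Genes of fatty acid synthesis were higher in the Has2 controls. De novo lipogenesis makes fatty acids from cytosolic acetyl-CoA: Acly cleaves citrate and Acss2 activates acetate to supply it, Acaca makes malonyl-CoA, Fasn assembles palmitate, Elovl6 lengthens it, Me1 supplies NADPH and Gpam starts the synthesis of triglyceride. Of 18 tested genes of the list, 11 were called higher, 0 lower, and all 18 differences were positive, with a median of 1.00. Acly stood at 425, 285, 1272 and 565 FPKM in Has2_WT replicates 1 to 4 and at 71.1, 126, 138 and 278 FPKM in PH20_WT replicates 1 to 4. The groups did not overlap, although the lowest Has2_WT value lay just above the highest PH20_WT value, and Has2_WT3 stood far above the rest. The difference was 1.99 ± 0.51 (SE) on the log2 scale (adjusted p = 0.282 by limma).

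Acss2 showed the same shape, at 45.9, 35.6, 126 and 62.5 FPKM in Has2_WT and 12, 21, 18.4 and 28.9 FPKM in PH20_WT, a difference of 1.64 ± 0.40 (SE) on the log2 scale (adjusted p = 0.271 by limma). Gpam stood at 18.9, 22.1, 35.6 and 21.1 FPKM and 7.5, 15.3, 10.7 and 9.2 FPKM, again without overlap, and differed by 1.19 ± 0.26 (SE) on the log2 scale (adjusted p = 0.255 by limma). Fasn, among the most abundant mRNAs of the tissue, ranged from 1253 to 3490 FPKM in Has2_WT and from 348 to 1003 FPKM in PH20_WT, and differed by 1.51 ± 0.42 (SE). Me1 (1.49) was called higher without overlap, and Elovl6 (1.71) and Acaca (1.24) were called with overlapping values. In all of these Has2_WT3 was the highest library and PH20_WT1 the lowest.

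The transcription factors that drive this programme were not called. Srebf1, which encodes the sterol and insulin-responsive factor SREBP-1, differed by 0.61 ± 0.28 (SE; adjusted p = 0.519), and Mlxipl, which encodes the glucose-responsive factor ChREBP, by 0.67 ± 0.40 (SE; adjusted p = 0.61) in the limma fit. Their values overlapped between groups. Srebf1 was called in 6 of 21 alternatives, among them without Has2_WT1 and without PH20_WT4, and Mlxipl in 3, among them without the 4 lymphoid-rich libraries. The count of 11 lipogenic genes lay between 9 (without Has2_WT3) and 15 under all alternatives. It was 11 without the 4 lymphoid-rich libraries, of which 10 were the same genes.

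**Figure D3:**
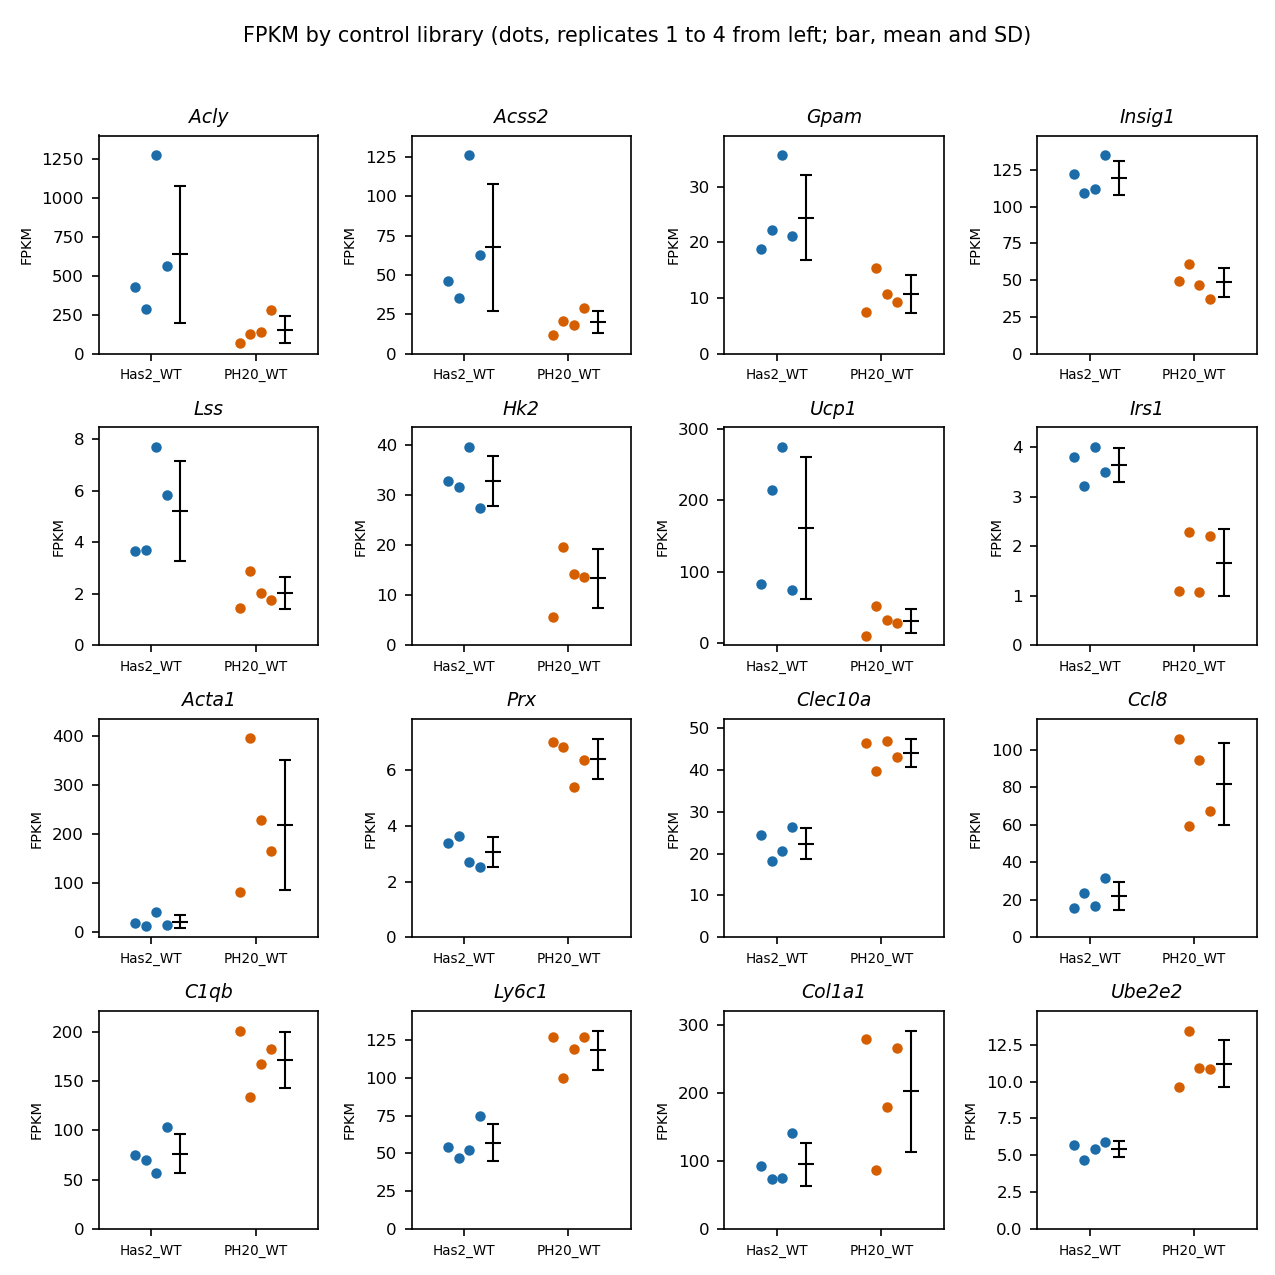
FPKM (y axis, linear from 0) of 16 genes in the 8 control libraries; dots are libraries (replicates 1 to 4 from left) and the bar beside them is the mean with its SD. Insig1, Clec10a and Ly6c1 are tight within each group, whereas Acly and Acss2 are spread by Has2_WT3. Ucp1 is high in both Has2_WT2 and Has2_WT3, and Col1a1 overlaps between the groups.

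Cholesterol synthesis genes were higher in Has2_WT as well, led by Insig1. Insig1 retains the SREBP escort protein in the endoplasmic reticulum and is itself an SREBP target. The list also holds the enzymes of the mevalonate and sterol steps, among them Hmgcs1 (HMG-CoA synthase), Mvk (mevalonate kinase), Mvd (mevalonate diphosphate decarboxylase), Sqle (squalene epoxidase), Lss (lanosterol synthase) and Sc5d (sterol C5 desaturase). Of 23 tested genes, 11 were called higher and 0 lower, with a median of 0.66. Insig1 stood at 122, 109.7, 112 and 135 FPKM in Has2_WT and at 49.2, 61, 46.6 and 37.3 FPKM in PH20_WT. The Has2_WT libraries lay within a narrow band well above all PH20_WT libraries, and Insig1 had the smallest p of all genes higher in Has2_WT, with a difference of 1.32 ± 0.17 (SE) on the log2 scale (adjusted p = 0.129 by limma).

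Lss stood at 3.66, 3.7, 7.68 and 5.83 FPKM against 1.45, 2.89, 2.01 and 1.74 FPKM and differed by 1.30 ± 0.30 (SE) on the log2 scale (adjusted p = 0.262 by limma). Mvd stood at 12.3, 8.18, 12.6 and 13.6 FPKM against 7.54, 6.19, 5.48 and 5.91 FPKM and differed by 0.86 ± 0.19 (SE) on the log2 scale (adjusted p = 0.255 by limma). Both were free of overlap. Hmgcs1 (0.94), Sqle (0.85), Sc5d (0.80) and Mvk (0.54) were called higher too. Srebf2, which encodes the main sterol-responsive factor, differed by 0.12 ± 0.28 (SE) and was not called. The count of 11 fell to 7 with the skeletal muscle score as a covariate. It was 14 without the 4 lymphoid-rich libraries, of which 10 were among the 11.

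The promoters of these genes are shown because the list was higher as a group and its members are known targets of SREBP, which binds the sterol regulatory element together with the CCAAT-binding factor NF-Y. RefSeq promoter windows (GRCm38.p6, 250 bases before to 50 bases after the transcription start) were found for 9 of the 11 called cholesterol genes and 9 of the 11 called lipogenic genes. CCAAT, searched on both strands, was in a window of 9 of the 9 cholesterol genes and 5 of the 9 lipogenic genes, against 41.1% of all 27025 genes with a window. The sterol regulatory element core TCACNCCAC was also searched on both strands. It was in a window of 1 of the 9 cholesterol genes, Hmgcs1, and in 0 of the 9 lipogenic genes, against 1.44% of all genes. In Hmgcs1, 128 bases lay between the last base of the match and the start. A match is a string of letters and not a measured binding site. Uncalled members of the lists were not set beside the called ones, so the part of these motifs in the difference was not tested. Hmgcs1 (chr13:119690101-119690400, plus strand), Insig1 (chr5:28071162-28071461, plus strand) and Mvd (chr8:122443373-122443672, minus strand) are printed from 5′ to 3′. Runs of 5 capitals mark CCAAT or its complement ATTGG, the run of 9 capitals in Hmgcs1 marks the sterol element core, and no matches of the 2 motifs overlapped.
Hmgcs1: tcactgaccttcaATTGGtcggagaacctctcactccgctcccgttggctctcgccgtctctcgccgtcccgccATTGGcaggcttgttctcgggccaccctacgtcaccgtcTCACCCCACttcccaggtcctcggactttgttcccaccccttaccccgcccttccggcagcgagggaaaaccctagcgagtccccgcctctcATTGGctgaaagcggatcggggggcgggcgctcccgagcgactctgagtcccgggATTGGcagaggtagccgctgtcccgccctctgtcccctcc
Insig1: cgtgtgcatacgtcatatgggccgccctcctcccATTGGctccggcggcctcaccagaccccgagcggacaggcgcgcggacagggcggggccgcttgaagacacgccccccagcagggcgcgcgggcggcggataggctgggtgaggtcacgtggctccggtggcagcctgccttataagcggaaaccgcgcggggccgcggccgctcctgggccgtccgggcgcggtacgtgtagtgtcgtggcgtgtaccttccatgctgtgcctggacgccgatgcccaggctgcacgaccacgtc
Mvd: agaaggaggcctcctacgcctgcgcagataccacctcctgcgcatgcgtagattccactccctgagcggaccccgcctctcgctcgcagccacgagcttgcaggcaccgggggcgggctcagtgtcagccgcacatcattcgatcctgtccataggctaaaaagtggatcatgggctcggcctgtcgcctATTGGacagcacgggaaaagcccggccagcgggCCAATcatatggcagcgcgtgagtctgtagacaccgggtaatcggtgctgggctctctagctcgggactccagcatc

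Glycolysis genes were higher in Has2_WT in part. Of 16 tested glycolysis genes 7 were called higher and 0 lower (median 0.48). Hk2, the hexokinase that insulin induces in fat, stood at 32.7, 31.6, 39.5 and 27.3 FPKM in Has2_WT and 5.64, 19.7, 14.3 and 13.7 FPKM in PH20_WT, without overlap, and differed by 1.41 ± 0.34 (SE) on the log2 scale (adjusted p = 0.267 by limma). Pgam1 differed by 0.91 ± 0.22 (SE). Gapdh gave the largest difference of the list (2.54), but at 1.86, 10.7, 3.11 and 32.3 FPKM in Has2_WT and 1.08, 0.907, 0.981 and 1.37 FPKM in PH20_WT it lay far below Pgam1, at 97.6, 106, 170.4 and 103 FPKM in Has2_WT. Gapdh has many near-identical pseudogenes among which reads may be split, so its value is uncertain. The count of 7 fell to 4 without Has2_WT3 and to 3 without PH20_WT1 or PH20_WT3, and was 4 without the 4 lymphoid-rich libraries or with the number of detected genes as a covariate.

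Among 18 tested genes of insulin signalling, 2 were called higher and 1 lower. Irs1, the insulin receptor substrate, stood at 3.81, 3.22, 4 and 3.49 FPKM in Has2_WT and at 1.1, 2.29, 1.09 and 2.22 FPKM in PH20_WT. The groups were well apart, and the difference was 1.15 ± 0.28 (SE) on the log2 scale (adjusted p = 0.273 by limma). Slc2a4, which encodes the insulin-responsive glucose transporter GLUT4, was also the only one of 16 adipocyte genes called, at 0.75 (adjusted p = 0.475 by limma), with overlapping values. Igfbp6, an IGF-binding protein, was lower (-1.34). Slc2a4 was no longer called without Has2_WT2, Has2_WT3, Has2_WT4, PH20_WT1 or PH20_WT3, nor with the number of detected genes as a covariate, and Igfbp6 was not with all 16 libraries in one fit. Without the 4 lymphoid-rich libraries 3 genes of insulin signalling were higher and 0 lower.

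Thermogenic genes were called higher in 5 of 15 cases and lower in 0, with a list median of 0.62. Ucp1, the uncoupling protein of brown and beige fat, stood at 82.6, 215, 275 and 74.3 FPKM in Has2_WT and at 9.98, 52.4, 32.6 and 28.4 FPKM in PH20_WT. All Has2_WT libraries exceeded all PH20_WT libraries, with large spread within Has2_WT, and the difference was 2.38 ± 0.57 (SE) on the log2 scale (adjusted p = 0.267 by limma). Otop1, a proton channel found in brown fat, stood at 26.3, 20.0, 35.3 and 19.1 FPKM and 8.27, 14.8, 10.5 and 11.3 FPKM and differed by 1.14 ± 0.24 (SE), also without overlap. Prdm16 (0.67), the brown fat transcription coregulator, Elovl3 (2.15), a fatty acid elongase, and Dio2 (1.34), which activates thyroid hormone, overlapped between groups. Cidea, another brown fat marker, differed by 0.19 ± 0.38 (SE) and was not called.

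The thermogenic count fell to 2 without Has2_WT3, and was 3 with voom weights and 3 without the 4 lymphoid-rich libraries. Fatty acid oxidation genes were called higher in 3 of 17 cases (median 0.39), among them Acadvl, the very long chain acyl-CoA dehydrogenase (0.90). That count fell to 0 without Has2_WT3, without PH20_WT1 or without the 4 lymphoid-rich libraries and to 1 without PH20_WT4, and rose to 6 without PH20_WT2 and 14 with the skeletal muscle score as a covariate. Of 82 nuclear oxidative phosphorylation genes 3 were called higher and 1 lower (median 0.08), and of 12 lipolysis genes 0 were called. The 1 lower gene was Cox6a2, which also belongs to the skeletal muscle list.

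Skeletal muscle genes gave the largest differences of the comparison, and all were lower in Has2_WT. Of 18 tested, 17 were called lower, and the values of 16 did not overlap between groups. The list median was -3.21. Acta1, the actin of skeletal muscle, stood at 17.5, 11.1, 39.1 and 14.4 FPKM in Has2_WT and 81, 396, 228 and 166 FPKM in PH20_WT. Each PH20_WT library exceeded each Has2_WT library, and the difference was -3.35 ± 0.51 (SE) on the log2 scale (adjusted p = 0.129 by limma). Tnni2, a troponin of fast fibres, stood at 2.7, 2.11, 7.55 and 3.18 FPKM and 22, 70.7, 45.2 and 39.6 FPKM and had the smallest p of all genes tested (-3.54 ± 0.44 (SE) on the log2 scale (adjusted p = 0.129 by limma)). Ckm, the muscle creatine kinase, differed by -3.75, the fast fibre protein Pvalb by -4.10, the muscle enolase Eno3 by -1.72, and the fast myosin Myh4 by -3.07.

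Summed over the 20 genes of the list, muscle RNA ranged from 41.7 to 151 FPKM in Has2_WT and from 322 to 1255 FPKM in PH20_WT. In bulk tissue a larger share of cells of a type and more RNA per cell cannot be told apart. In the transgenic littermates the same sum ranged from 15.2 to 1077 FPKM in Has2_TG and from 26.1 to 371 FPKM in PH20_TG, so it varied as widely within a group there. Of 17 genes called, 8 remained with all 16 libraries in one fit, and 16 without the 4 lymphoid-rich libraries. With the muscle score as a covariate 0 muscle genes were called, as the construction of the score requires. That fit called 945 genes higher and 841 lower in Has2_WT. The muscle score did not overlap between the groups (0.08 to 1.93 in Has2_WT, 3.05 to 4.88 in PH20_WT). A fit with this covariate therefore cannot separate muscle RNA from group, wherever its counts are given. The part of muscle RNA in the differences of the other lists was not tested.

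Genes of myelinating Schwann cells were lower in Has2_WT. Of 9 tested, 5 were called lower and 0 higher (median -0.57). Prx, a myelin scaffold protein, stood at 3.38, 3.63, 2.69 and 2.52 FPKM in Has2_WT and 7.01, 6.86, 5.39 and 6.38 FPKM in PH20_WT (-1.05 ± 0.18 (SE) on the log2 scale (adjusted p = 0.135 by limma)). It was tight within groups and apart between them. Ncmap (-1.41) and Mbp (-0.58), further myelin proteins, were also called. The count of 5 was 4 or 5 under all alternatives. Among them was the muscle covariate, which cannot separate muscle RNA from group.

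Macrophage genes were lower in Has2_WT. Of 16 tested, 9 were called lower and 0 higher, with a median of -0.76. Clec10a, a lectin of resident and alternatively activated macrophages and dendritic cells, stood at 24.4, 18.1, 20.6 and 26.3 FPKM in Has2_WT and 46.5, 39.7, 46.9 and 43.2 FPKM in PH20_WT. The ranges were narrow and well apart, and the difference was -0.99 ± 0.15 (SE) on the log2 scale (adjusted p = 0.129 by limma). Adgre1, which encodes the macrophage marker F4/80, stood at 8.12, 3.9, 4.15 and 8.33 FPKM and 12.1, 8.68, 10.0 and 13.3 FPKM and differed by -0.91 ± 0.29 (SE). Folr2 (-0.79), a marker of tissue-resident macrophages, and the lysosomal protein gene Cd68 (-0.79) were called with overlapping values. Clec7a, outside the list, encodes the receptor dectin-1 and carries the annotation polymorphic pseudogene in the file. It stood at 2.38, 1.61, 1.29 and 1.69 FPKM and 5.23, 4.26, 4.73 and 4.26 FPKM (-1.38 ± 0.21 (SE) on the log2 scale (adjusted p = 0.129 by limma)).

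Chemokines and complement, much of it made by macrophages, were lower together with them. Of 21 tested chemokine and receptor genes 9 were called lower and 0 higher (median -0.88). Ccl8, a ligand for monocytes and lymphocytes, stood at 15.6, 23.7, 16.8 and 31.7 FPKM in Has2_WT and 106, 59.6, 94.5 and 67.6 FPKM in PH20_WT, without overlap, and differed by -1.92 ± 0.27 (SE) on the log2 scale (adjusted p = 0.129 by limma). The chemokine receptor Ccr1 (-1.13) and Ackr1, a chemokine-binding protein of venules (-1.09), were also apart between groups.

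Of 16 complement genes 9 were called lower and 0 higher (median -0.70). C1qb, a chain of the first complement component, stood at 75.3, 70.0, 57 and 104 FPKM in Has2_WT and 202, 134, 168 and 182 FPKM in PH20_WT, and differed by -1.18 ± 0.21 (SE) on the log2 scale (adjusted p = 0.148 by limma). The other chain gene C1qa (-0.99) and properdin, Cfp (-0.76), followed without overlap. The macrophage count fell to 5 without PH20_WT4 or with the muscle covariate and to 4 with all 16 libraries in one fit. The fit of all 16 libraries called 4 chemokine and 5 complement genes, and without the 4 lymphoid-rich libraries the counts were 2 of the macrophage, 9 of the chemokine and 2 of the complement genes.

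Matrix genes were lower in Has2_WT, though less evenly. Of 37 tested matrix proteins other than collagens 9 were called lower and 0 higher (median -0.53), and of 26 collagens 4 were lower and 1 higher (median -0.37). Col1a1, the main fibrillar collagen chain, stood at 92.6, 73.7, 74.4 and 141 FPKM in Has2_WT and 279, 86.7, 179 and 266 FPKM in PH20_WT, with overlap, and differed by -1.002 ± 0.38 (SE). Its partner chain Col1a2 differed by -0.92. Col15a1, a basement membrane collagen of vessels and adipocytes, was the one called higher, at 32.3, 57.3, 69.7 and 76.7 FPKM against 26.1, 31.9, 30.3 and 29.8 FPKM (0.93 ± 0.25 (SE) on the log2 scale (adjusted p = 0.307 by limma)).

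Mfap4, a microfibril-associated protein, stood at 0, 0.269, 0.123 and 0.518 FPKM in Has2_WT and at 4.48, 1.52, 2.24 and 1.78 FPKM (-3.17 ± 0.58 (SE) on the log2 scale (adjusted p = 0.165 by limma)). The macrophage elastase Mmp12 stood at 0.00507, 0.143, 0.0163 and 0.174 FPKM and 2.27, 0.571, 1.25 and 1.74 FPKM (-3.06 ± 0.53 (SE) on the log2 scale (adjusted p = 0.135 by limma)). Behind these values are 0 to 19 reads of Mfap4 and 1 to 24 reads of Mmp12 in the Has2_WT libraries, so the sizes of these differences depend on the constant added before the logarithm. Aspn, a small leucine-rich proteoglycan, differed by -0.60 ± 0.18 (SE) without overlap. Of 16 progenitor genes 4 were called lower and 1 higher (median -0.77), led by Ly6a, which encodes the stem cell antigen Sca-1, at 61.5, 81, 76.8 and 127 FPKM against 249, 112, 184 and 229.8 FPKM. Ly6c1, an endothelial and myeloid surface protein, stood at 54.3, 46.6, 52.4 and 74.8 FPKM and 127, 99.8, 119 and 127 FPKM (-1.07 ± 0.17 (SE) on the log2 scale (adjusted p = 0.132 by limma)).

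These counts rested on single libraries. The matrix protein count fell to 3 without Has2_WT2, to 4 without Has2_WT3 or PH20_WT1, to 5 without PH20_WT3 or PH20_WT4, rose to 21 without Has2_WT4 and to 15 without PH20_WT2, and was 1 without the 4 lymphoid-rich libraries. The count of lower collagens fell to 0 without Has2_WT2, Has2_WT3 or PH20_WT1, to 1 without Has2_WT1, PH20_WT3 or PH20_WT4, and rose to 9 without Has2_WT4 and was 0 without the 4 lymphoid-rich libraries. The count of lower progenitor genes fell to 1 without Has2_WT2, to 2 without Has2_WT3 or PH20_WT1, rose to 8 without Has2_WT4 and 10 without PH20_WT2, and was 0 without the 4 lymphoid-rich libraries. With all 16 libraries in one fit the counts were 4 matrix proteins, 0 collagens and 2 progenitor genes.

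Genes induced by interferons leaned the same way. Of 30 interferon-stimulated genes 5 were called lower and 0 higher (median -0.41), and of 21 guanylate-binding and Ifi200 genes 6 lower and 0 higher (median -0.50). Ifi207 stood at 6.58, 5.38, 4.89 and 7.68 FPKM in Has2_WT and 15.6, 9.32, 12.3 and 9.41 FPKM in PH20_WT (-0.90 ± 0.22 (SE) on the log2 scale (adjusted p = 0.267 by limma)), and Gbp5, a guanylate-binding protein, at 2.4, 2.69, 1.76 and 1.74 FPKM and 5.3, 3.12, 3.67 and 5.08 FPKM (-0.96). Both were free of overlap, as were Oasl2 (-0.71) and Bst2 (-0.69). Of 18 MHC class I genes 3 were called lower, among them H2-Q4 (-0.47), and of 11 MHC class II genes 0 were. All 78 tested cytosolic ribosomal protein genes had a negative difference (median -0.39), of which 12 were called, such as Rpl26 (-0.51). The ribosomal count was 0 without Has2_WT4 or PH20_WT1, 1 without PH20_WT4, 2 without PH20_WT3, 3 without Has2_WT1, 5 without Has2_WT3, 32 without PH20_WT2 and 43 with the muscle covariate, so single libraries set it. The interferon-stimulated count ranged from 2, without PH20_WT4, to 10, without Has2_WT1, the guanylate-binding and Ifi200 count from 3, without PH20_WT3, to 10, without Has2_WT1, and the MHC class I count from 0, without Has2_WT4, to 6, in the fit of all 16 libraries and in the one adjusted for B cell score. Without the 4 lymphoid-rich libraries 1 ribosomal, 2 interferon-stimulated, 3 guanylate-binding and Ifi200 and 4 MHC class I genes were called lower, and 5 MHC class II genes. Of these, 1 ribosomal, 1 interferon-stimulated, 1 guanylate-binding and Ifi200, 3 MHC class I and 0 MHC class II genes had been called lower with all 8 control libraries.

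Of the 23 listed genes of the hyaluronan system 13 were tested, and 0 of them were called in the limma test. Hyaluronan is made at the cell surface by the synthases, cut by hyaluronidases such as Hyal1 and Hyal2, and bound by Cd44 and by Lyve1 of lymphatic vessels and macrophages. Has2 differed by -0.01 with a 95% interval from -0.87 to 0.85. Hyal1 stood at 4.5, 4.1, 5.44 and 2.91 FPKM in Has2_WT and 1.79, 3.53, 2.5 and 3.5 FPKM in PH20_WT, a difference of 0.58 (interval -0.04 to 1.21). Ugdh, which makes the precursor UDP-glucuronate, differed by -0.43 (interval -0.94 to 0.08), Hyal2 by 0.14, Lyve1 by -0.29 and Cd44 by -0.25, the last being higher in the lymphoid-rich libraries of both groups. Hyal1 was called higher in 5 of 21 alternatives (without Has2_WT4, PH20_WT2 or PH20_WT4, with voom weights, and with the muscle covariate), Ugdh lower in 2 (without Has2_WT4 or PH20_WT2) and Cd44 lower in 1 (with the muscle covariate). Ncan, a hyaluronan-binding proteoglycan outside this list, was called higher (2.25).

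Other lists showed few called genes, where 4.77% of all genes were called higher and 5.29% lower. Of 19 circadian clock genes 1 was called, of 23 immediate early genes 1 (Klf4, a transcription factor, lower by limma with an adjusted p = 0.132), of 14 heat shock genes 0, of 14 integrated stress response genes 2 and of 18 xenobiotic metabolism genes 1. Of 14 glucocorticoid-responsive genes 1 was higher and 2 were lower, among them Sgk1, an insulin- and glucocorticoid-induced kinase, at 3.98, 6.74, 5.21 and 5.07 FPKM in Has2_WT and 9.14, 13.7, 11.2 and 8.33 FPKM in PH20_WT (-0.996 ± 0.21 (SE) on the log2 scale (adjusted p = 0.249 by limma)). Of 12 proliferation genes 1 was called lower, and of 19 genes known to vary between inbred strains 2 were, Ly6a and Ly6c1. Leptin, Lep, differed by 0.75 ± 0.44 (SE) and was not called, with values from 60.8 to 266 FPKM in Has2_WT and from 58 to 120 FPKM in PH20_WT.

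Several genes outside the lists stood among the smallest p-values. Gm10705, annotated as a processed pseudogene, stood at 8.6, 25.1, 10.2 and 22.9 FPKM in Has2_WT and 1.71, 4.27, 1.21 and 1.38 FPKM in PH20_WT (2.93 ± 0.47 (SE) on the log2 scale (adjusted p = 0.132 by limma)), and its reads may belong to a parent gene. Sbk1, a serine/threonine kinase, stood at 32, 21.5, 32.7 and 30.7 FPKM and 14.6, 13.1, 12.2 and 8.33 FPKM (1.28 ± 0.21 (SE) on the log2 scale (adjusted p = 0.135 by limma)). Rasd1, a small GTPase induced by glucocorticoids, stood at 92.8, 101, 165 and 124 FPKM and 24.7, 65.8, 40.1 and 29.9 FPKM (1.65 ± 0.31 (SE) on the log2 scale (adjusted p = 0.165 by limma)). All were higher in Has2_WT without overlap. So were Ncan, a brain proteoglycan that binds hyaluronan (2.25), Cpn2, a subunit of carboxypeptidase N (1.69), Alb, the serum albumin gene (1.19), Hephl1, a copper-dependent ferroxidase (1.97), and Acot11, an acyl-CoA thioesterase of brown fat (2.18).

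The transgenic littermates offered the line contrast in mice that share no library with the controls. In 2 of the PH20_TG libraries, however, Has2 was as high as in Has2_TG. Has2 stood at 2.27, 1.86, 3.24 and 2.97 FPKM in Has2_TG and at 3.32, 0.38, 0.099 and 3.26 FPKM in PH20_TG replicates 1 to 4. The libraries labelled PH20_TG1 and PH20_TG4 thus had as much Has2 as the Has2_TG libraries, while the other 2 were low. Spam1, the transgene of the PH20 line, had 0, 6, 12 and 5 reads in PH20_TG replicates 1 to 4 and 0 in the other 12 libraries. PH20_TG4 thus had reads of the transgene of its label, as PH20_TG2 and PH20_TG3 did. Whether a library was mislabelled was not tested. Each transgenic result is therefore given with all 8 libraries and without PH20_TG1 and PH20_TG4 (4 against 2), a choice made after seeing the data. The mean log2 level of the progenitor list was 4.443 and 4.332 in these 2 libraries, against 2.325 and 2.051 in PH20_TG2 and PH20_TG3. That of the macrophage list was 4.859 and 3.598, against 2.036 and 2.556. Leaving them out thus also selects by these lists, and calls of such genes without them follow in part from that choice. With or without the 2 libraries, the contrast holds effects of the transgenes as well as the line, which cannot be told apart.

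With all 8 transgenic libraries, 331 of 12373 genes (2.68%) were higher and 460 (3.72%) were lower in Has2_TG at an unadjusted p under 0.05, and 0 passed the adjustment in limma (smallest adjusted p 0.0732). Without the 2 libraries, 936 of 12372 (7.57%) were higher, 514 (4.15%) were lower, and 269 passed the adjustment. Of 1254 genes called in the controls and tested with all 8, 639 (51.0%) differed in the same direction, against 53.9% of all 12151 genes tested in both contrasts. Of these, 45 were called in the same direction and 33 in the opposite one. Without the 2 libraries 311 of 1253 (24.8%) had the same direction, against 42.7% of all genes, with 18 called in the same direction and 279 in the opposite one.

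The lipogenic, cholesterol, macrophage, complement and skeletal muscle lists were not called in the same direction in the transgenics as in the controls, and the number of genes called there depended on the 2 libraries. Of 18 lipogenic genes 0 were called with all 8 libraries (median -0.21), and 11 were lower in Has2_TG without the 2 (median -0.57). Of 23 cholesterol genes 1 was called lower (median -0.02), and 4 without the 2 libraries (median -0.38). Of 16 macrophage genes 3 were called higher (median 0.26), and 12 without the 2 libraries (median 1.26). The 2 libraries left out had the highest macrophage level of the PH20_TG group. Of 16 complement genes 2 were called higher (median 0.35), and 12 without the 2 libraries (median 1.12). In the controls the lipogenic and cholesterol lists had been higher in the Has2 line and the macrophage and complement lists lower. The skeletal muscle list had 0 called of 16 either way, and the Schwann cell list had 1 lower with all 8 libraries and 0 without the 2. MHC class I genes were lower in the Has2 line in both genotypes, with 3 of 18 called lower in the controls (median -0.29), 7 in the transgenics (median -0.32) and 6 lower and 2 higher without the 2 libraries (median -0.38). Interferon-stimulated genes had 6 of 30 called higher and 0 lower in the transgenics (median 0.24), and 11 higher without the 2 (median 0.39). Guanylate-binding and Ifi200 genes had 3 of 17 higher and 1 lower (median 0.18), and 9 of 19 higher without the 2 (median 0.39). Both had leaned lower in the controls. Of 19 chemokine genes 3 were lower and 0 higher (median 0.15), against 1 lower and 9 higher without the 2 (median 0.78). Of 78 ribosomal genes 6 were lower and 1 higher in the transgenics (median -0.10), against 1 lower and 12 higher without the 2 libraries (median 0.04).

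The difference between the contrasts was tested in a fit of all groups, as the line difference in controls minus that in transgenics. With 16 libraries 0 of 12593 genes passed the adjustment in limma (smallest adjusted p 0.567, with 970 at an unadjusted p under 0.05). Without the 2 libraries 322 of 12601 passed it, and 1778 were at an unadjusted p under 0.05.

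**Figure D4:**
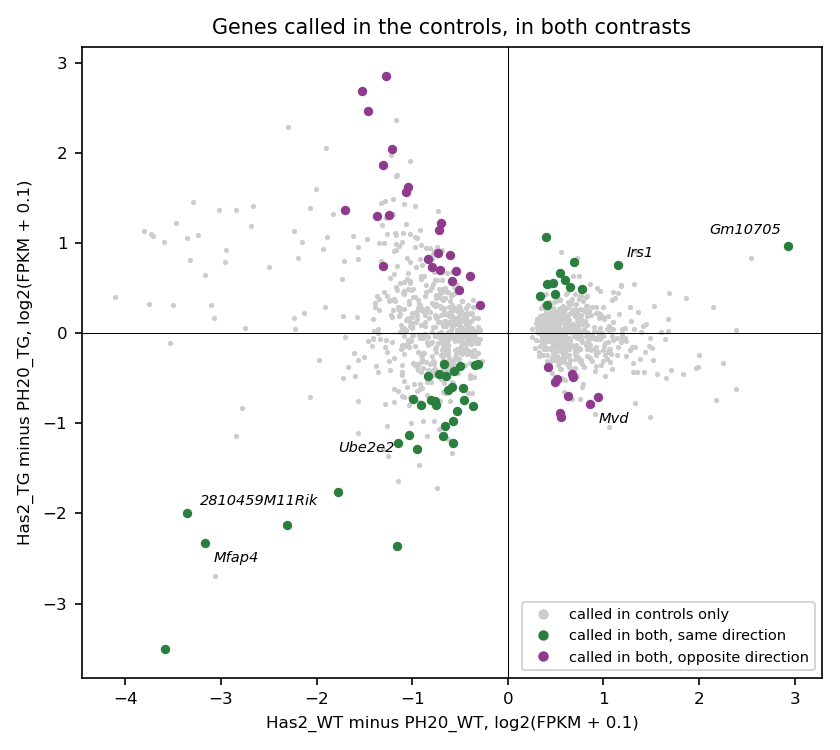
Each dot is one of the 1254 genes called in the controls and tested in all 8 transgenic libraries, with its log2 difference between lines in controls (x axis) and in transgenics (y axis). The 45 genes called in both contrasts in the same direction are green and the 33 called in opposite directions are purple, and the grey cloud is spread about 0 on the y axis.

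A few genes kept their difference in both genotypes. In 6 of the 12673 genes tested, every one of the 8 libraries of one line lay above every one of the 8 of the other, PH20_TG1 and PH20_TG4 included. These genes were picked by the values of both genotypes, so their transgenic differences and p-values are no separate test. Some may separate by chance. Ube2e2 (chr14:18573575-18894267, GRCm38), a ubiquitin-conjugating enzyme, stood at 5.69, 4.71, 5.42 and 5.89 FPKM in Has2_WT and 5.46, 5.48, 4.81 and 5.05 FPKM in Has2_TG, and at 9.64, 13.5, 11 and 10.9 FPKM in PH20_WT and 6.58, 15.7, 14.8 and 11.4 FPKM in PH20_TG. The level was nearly constant over the Has2 line and more spread in the PH20 line, where the lowest library was PH20_TG1. The differences were -1.03 in controls (adjusted p = 0.129), -1.13 in transgenics (adjusted p = 0.698) and -1.53 in transgenics without the 2 libraries (adjusted p = 0.00441), all by limma.

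Gene 2810459M11Rik (chr1:86045863-86055456) stood at 0, 1.1, 1.5 and 0.849 FPKM in Has2_WT, 1.48, 1.18, 1.33 and 1.11 FPKM in Has2_TG, 3, 7.82, 6.2 and 12.8 FPKM in PH20_WT and 3.68, 5.76, 6.44 and 5.96 FPKM in PH20_TG, and its transgenic difference of -2.00 had an adjusted p = 0.0732 by limma. Icam2 (chr11:106377656-106388075), an adhesion molecule of endothelium and platelets, differed by -0.91 in controls and -0.79 in transgenics, and Sipa1l2 (chr8:125418063-125569808), a GTPase-activating protein, by -0.53 and -0.86. Those 4 were lower in the Has2 line. Higher in the Has2 line were Tada2b (chr5:36473670-36484285), a histone acetyltransferase adaptor, by 0.65 and 0.51, and Slc16a10 (chr10:40033532-40142258), an aromatic amino acid transporter, by 0.77 and 0.49. Without the 2 libraries Icam2 (-0.68, adjusted p = 0.561 by limma) was no longer called.

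**Figure D5:**
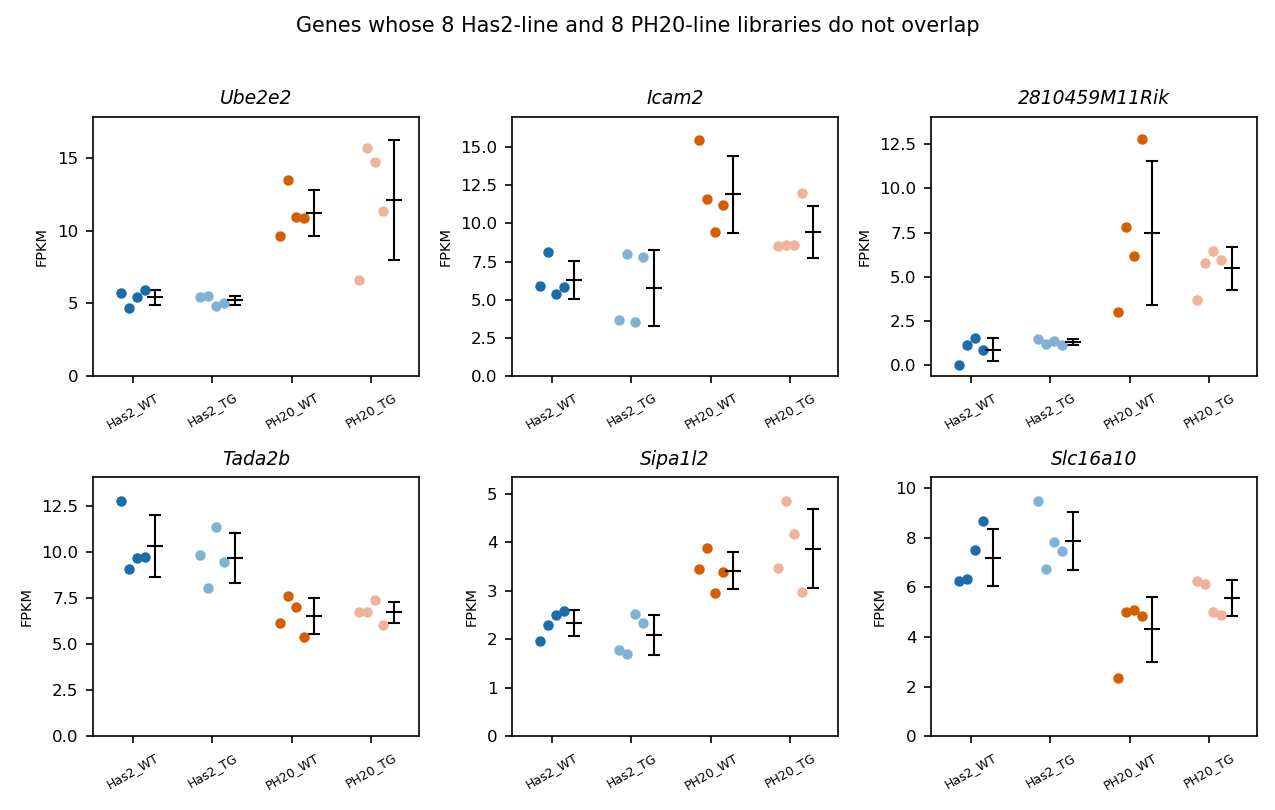
FPKM (y axis) of the 6 genes whose 8 Has2-line libraries (blue, WT and TG) and 8 PH20-line libraries (orange, WT and TG) do not overlap; dots are libraries and bars are the mean with its SD. Ube2e2 stays between 4.71 and 5.9 FPKM in the Has2 line and between 6.58 and 15.7 FPKM in the PH20 line.

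Other genes called in both contrasts in the same direction included Serpina3k, a serine protease inhibitor, at 0, 0.53, 1.55 and 0 FPKM in Has2_WT and 1.44, 4.36, 3.33 and 9.05 FPKM in PH20_WT, with differences of -3.59 in controls, -3.51 in transgenics and -4.37 without the 2 libraries. H2-Q4 differed by -0.47, -0.61 and -0.61 in the same order, and stayed called. Xlr3b, an X-linked gene (-2.31 and -2.13), Mfap4 (-3.17 and -2.33), Sgk1 (-0.996 and -0.73) and Irs1 (1.15 and 0.76) were called with all 8 transgenic libraries and not without the 2. Serpina3k, Xlr3b and H2-Q4 belong to multigene families with close copies, so reads may be split between members and these values are uncertain. Mvd (-0.78, and -1.01 without the 2 libraries) and Oasl2 (0.71 and 1.15) were called in the opposite direction to the controls both ways.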

How the data were processed

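Bulk RNA sequencing of iWAT from 8 control mice was analysed, with 8 transgenic littermates as a second contrast. The authors aligned reads to GRCm38 with STAR (version 2.7.9a) and deposited FPKM for 54532 genes with gene lengths. FPKM times gene length and library total gave whole reads (within 0.01) in 100% of values. The deposited FPKM carry a scaling, since the total behind them was 0.886 to 1.14 times the reads on genes. Whether counting used strand is not given in the sources used here.

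Genes averaging 50 reads or more in the 8 libraries entered a test with limma (version 3.58.1, R version 4.3.3), two-sided, on log2(FPKM + 0.1) with a variance trend, checked on simulated data. P-values measure the spread between libraries. Counts are gene calls. The members, the 45 gene lists and the tests were chosen with earlier results of these data known. Genes were named by smallest p and largest change among called genes without overlap (15 and 5 a direction), the 3 smallest p of a list, the hyaluronan genes and fixed markers; others named in the text are members of lists or of both contrasts, chosen after their values were seen. The 28 pairs of control libraries differed by more than sampling noise (smallest chi-square per degree of freedom 36.3). The fits were repeated with 19 other settings of pseudocount, filter, scaling, weights, covariates, block and libraries, and 3 more were added after the data were seen. Some members of the lists are counted but not reported singly here.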

Additional observations from a re-analysis of the deposited data

Results flagged for a closer look

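Of 198 sets of values of named genes in a control group of 4 libraries, 11 had 1 library far from the other 3, where chance gives about 1 in 20. Adipoq stood at 751 FPKM in Has2_WT1 against 1603 to 1667 FPKM in the other Has2_WT libraries, and Sc5d at 52.5 FPKM in Has2_WT4 against 31.1 to 32.7 FPKM. Pgam1 stood at 170.4 FPKM in Has2_WT3 against 97.6 to 105.5 FPKM. Folr2 was highest in replicate 4 of both groups, at 8.13 FPKM in Has2_WT4 (others 4.42 to 4.89 FPKM) and 12.3 FPKM in PH20_WT4 (others 7.93 to 8.62 FPKM). Sqle stood at 4.77 FPKM in PH20_WT4 against 2.62 to 2.75 FPKM, and Elovl3 at 3.91 FPKM in PH20_WT4 against 0.511 to 0.645 FPKM. Gm10705 stood at 4.27 FPKM and Ddx3y at 18.9 FPKM in PH20_WT2, against 1.21 to 1.71 FPKM and 16.1 to 16.5 FPKM in the others. Slc16a10 stood at 2.35 FPKM in PH20_WT1 against 4.85 to 5.07 FPKM. Xist was at 0.0164 FPKM in Has2_WT3 and at 0 in the other Has2_WT libraries.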

How the results depend on the processing

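The main counts were 605 genes higher and 671 lower in Has2_WT, 0 after adjustment, and 45 called in the same direction in both contrasts. Over 21 alternatives the counts of genes higher and lower stayed within 1.5 times of these in all but the following. With the skeletal muscle score as a covariate 945 were higher. Without the 4 libraries over 10 FPKM of Cd79a, chosen after seeing the data, 359 were higher and 430 lower. Leaving out each library in turn gave 375 to 780 higher and 416 to 789 lower, and 0 after adjustment each time. After adjustment the B cell score as a covariate gave 40 genes, and every other alternative 0. The replicate block gave 600 higher and 707 lower. Same-numbered libraries had deviations correlated at -0.458 to 0.567, and 1 of 4 was closest to its own number. No pairing by number was thus seen, though 4 pairs cannot settle this. The 45 shared genes numbered 39 to 66 under the 7 alternatives run on both contrasts. Of 98 named genes 91 were tested in all 21 alternatives, and 37 of these kept direction and side of the threshold throughout. With the skeletal muscle score as a covariate the differences of Myh4 (0.76) and Sox18 (0.22) changed sign. Without PH20_TG1 and PH20_TG4, left out after seeing the data, the 45 shared genes fell to 18. No gene passed adjustment, so positions of such genes were not described. The number of genes with a read as a covariate was also added after seeing the data. Depth limits genes near 50 reads, whose differences depend on the pseudocount.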

Other observations

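Endothelial genes leaned lower in the Has2 line in both genotypes. All 12 tested endothelial genes had a negative difference in the controls (median -0.45), of which 2 were called lower, against 5.29% of all genes. In the transgenics the median was -0.39 with 3 called lower, against 3.72% of all genes. Without PH20_TG1 and PH20_TG4, whose Has2 level was like that of Has2_TG, 3 were lower and 1 higher (median -0.29). Over all genes 4.15% were lower and 7.57% higher there. Outside the list, Sox17 and Sox18, transcription factors of endothelium chosen after their values were seen, were called lower in both contrasts, and Sox17 was not called without those 2 libraries (-0.62 against -0.48 for Sox18). Sox17 stood at 3.69, 3.05, 2.81 and 2.58 FPKM in Has2_WT, 3.46, 5.04, 5.71 and 6.91 FPKM in PH20_WT, 1.75, 3.74, 4.04 and 4.91 FPKM in Has2_TG and 6.9, 5.42, 5.09 and 6.6 FPKM in PH20_TG. Sox18 stood at 9.13, 14.4, 22.5 and 16.3 FPKM in Has2_WT, 17, 32.8, 25.5 and 34.4 FPKM in PH20_WT, 15.8, 21.6, 21.4 and 24.2 FPKM in Has2_TG and 22, 27.2, 29.9 and 36.6 FPKM in PH20_TG. In the controls both genes overlapped between the lines, and in the transgenics Sox18 did. The number of genes with at least 1 read ranged from 16348 to 21986 in the controls, with Has2_WT2, Has2_WT3 and PH20_WT3 the highest.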
